A study of Mus musculus with 192 samples.

Results

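The results concern mouse bone marrow-derived dendritic cells exposed for 6 hours to the pair HMW + CpGB, set against the same cells exposed to HMW alone and to CpGB alone. The members are the 9 libraries of these 3 groups, of 64 groups with 3 libraries each in the series. They were defined by treatment label and not by a measured value, though with earlier results of these data known. Per the labels, marrow came from female C57BL/6J mice aged 6 to 8 weeks, was cultured with GM-CSF at 15 ng/mL, and was plated at 100000 cells per well before stimulation. Unstimulated cells (Ctrl, 3 libraries) shared this culture and received no ligand. The study combined 7 ligands of pattern recognition receptors singly, in pairs and in triplets, and asked how the response to a combination relates to the responses to its parts. HMW is not spelled out in the labels and is not expanded here, ligand doses are not stated there, and the labels do not say whether replicates came from separate mice or cultures, so the p-values below measure only the spread between these libraries.

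Pattern recognition receptors let innate immune cells detect microbial components. CpGB is the name in use for class B CpG oligonucleotides, synthetic DNA with unmethylated CG dinucleotides that is sensed by the endosomal receptor TLR9. TLR9 signals through the adaptor MyD88 to the transcription factor NF-kB, which turns on inflammatory cytokine genes, and to interferon regulatory factors, which turn on type I interferon genes. Interferon released by the cells then acts through its receptor on interferon-stimulated genes, many of which carry an interferon-stimulated response element in their promoters. A pair of ligands can in principle leave a gene at the level of the stronger ligand, place it between both ligands, or move it above or below both.

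The promoters of 3 genes are printed as examples of windows that hold the motifs described here: Ifit1, an interferon-stimulated gene that HMW alone also raised, Il6, an inflammatory cytokine gene raised by CpGB and not called with HMW alone, and Cxcl10, a chemokine gene known to respond to both pathways. Each sequence is the 250 bases before the annotated start in RefSeq GRCm38.p6, 5′ to 3′ on the gene's strand. Capitals mark matches, on either strand, to the core of the interferon-stimulated response element (GAAA, any 2 bases, GAAA) or to an NF-kB site (GGGA, any 4 bases, CC).
Ifit1, chr19:34640639-34640888, plus strand: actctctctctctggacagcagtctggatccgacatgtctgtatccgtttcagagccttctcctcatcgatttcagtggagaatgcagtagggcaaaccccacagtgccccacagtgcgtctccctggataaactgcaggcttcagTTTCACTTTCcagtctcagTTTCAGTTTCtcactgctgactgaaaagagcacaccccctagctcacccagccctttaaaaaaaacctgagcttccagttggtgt
Cxcl10, chr5:92348890-92349139, minus strand: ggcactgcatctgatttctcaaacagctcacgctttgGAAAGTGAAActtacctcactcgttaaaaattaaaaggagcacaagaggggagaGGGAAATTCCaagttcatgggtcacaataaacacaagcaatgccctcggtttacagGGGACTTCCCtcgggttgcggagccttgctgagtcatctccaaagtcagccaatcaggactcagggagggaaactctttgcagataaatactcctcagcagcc
Il6, chr5:30012864-30013113, plus strand: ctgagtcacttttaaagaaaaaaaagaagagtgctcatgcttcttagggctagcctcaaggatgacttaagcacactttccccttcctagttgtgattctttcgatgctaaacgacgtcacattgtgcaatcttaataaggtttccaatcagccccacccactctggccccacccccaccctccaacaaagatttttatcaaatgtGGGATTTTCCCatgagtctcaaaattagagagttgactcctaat
The Ifit1 window held 2 response element cores and the Il6 window an NF-kB match that reads on both strands at overlapping positions. The Cxcl10 window held 1 response element core, at −213 to −204 from the start, and NF-kB matches at 2 places, −159 to −150 and −103 to −94. They do not stand for their groups, since the same windows of Irf7 and Oasl2 (interferon-stimulated) and of Tnf, Il1b, Il12b and Ptgs2 (inflammatory) held neither motif.

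Total counts of unique molecular identifiers (UMIs, tags that mark single cDNA molecules) ranged from 172188 to 282042 in the pair, from 105332 to 194725 with HMW, from 98306 to 212946 with CpGB and from 61823 to 89530 in Ctrl. These are low totals for RNA sequencing, and small differences of weakly expressed genes were not detectable at this depth. Values are CPM, counts of each library scaled to a common total with TMM factors, and 4720 of 23481 genes had enough counts to be tested. Marker genes of the labelled cell type were present. The summed level of the dendritic cell list was 4083 to 4251 CPM with HMW, 5556 to 5887 with CpGB and 5633 to 5869 in the pair, with 2 of 8 tested members higher in the pair than with HMW (Ccl17 and Ccl22; 7.84% of all tested genes were higher) and Cd209a at 0 in all 12 libraries. The macrophage list summed to 14084 to 15716 CPM with HMW, 12101 to 12963 with CpGB and 13076 to 14472 in the pair, with 0 of 8 members called. The neutrophil list summed to 623 to 973 CPM with HMW and 732 to 920 in the pair, with 2 of 7 members lower (5.85% of all tested genes were lower). A plasmacytoid dendritic cell list summed to 353 to 498 CPM with HMW, 832 to 1074 with CpGB and 798 to 842 in the pair, and the called member, 1 of 3 tested, was Bst2, which is also an interferon-stimulated gene (190 to 296 CPM with HMW and 549 to 584 in the pair). Lists for B cells and for T and NK cells summed to at most 9.7 and 12.5 CPM in any of the 12 libraries. In bulk libraries, fewer cells of a type and less RNA per cell cannot be told apart, and the part of cell composition in the differences below was not tested.

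Gene by gene, the pair could not be separated from CpGB alone, whereas it differed from HMW alone at many genes. Against CpGB, no gene was called changed in the pair, where a call needed a log2 fold change of 1 or more in size and an adjusted p under 0.05 (edgeR's quasi-likelihood test, adjusted by Benjamini-Hochberg, 0.0% of 4720 genes). The smallest adjusted p was 0.803, DESeq2 also called 0 genes, and 204 genes (4.32%) had an unadjusted p under 0.05 in edgeR and 130 in DESeq2. Against HMW, 646 genes were called, 13.7% of those tested. Of these, 370 (7.84%) were higher in the pair and 276 (5.85%) were lower. By adjusted p alone, 11.4% of genes were higher and 8.94% lower.

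A count of 0 does not show that the levels were equal, so the 95% interval of each difference was used. The interval of the difference between the pair and CpGB lay within 2-fold in either direction for 2198 of 4720 genes (46.6%). At a mean of 100 CPM or more this held for 1388 of 1450 (95.7%), and for 773 of these the interval lay within 1.5-fold. At 500 CPM or more it held for 289 of 289 within 2-fold and for 282 within 1.5-fold. The median absolute log2 difference over all tested genes was 0.23 against CpGB and 0.45 against HMW.

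**Figure D1:**
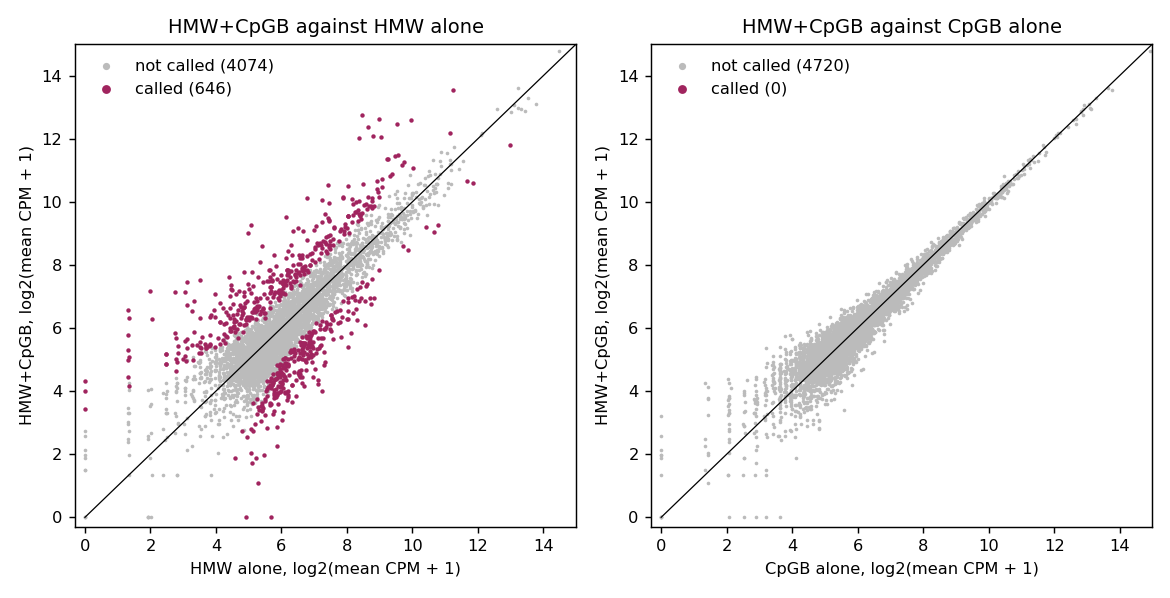
Mean CPM of the HMW + CpGB pair (vertical axis, log2 of CPM + 1) against HMW alone and against CpGB alone (horizontal axes), 1 point per tested gene and n = 3 libraries per group. Called genes are coloured: 370 higher and 276 lower against HMW, and 0 against CpGB, where the points lie along the diagonal.

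No gene rose above both single ligands or fell below both under the rule that both log2 differences reach 1 in size and the larger of both p-values passes adjustment in edgeR. The counts were 0 above and 0 below (0.0% each). These counts follow from the comparison with CpGB, where no gene passed adjustment, and are no separate result. At an unadjusted p under 0.05 against both ligands, 13 genes (0.275%) were higher than with either and 28 (0.593%) were lower.

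Called differences between CpGB and HMW separated 652 genes (13.8%), 380 higher with CpGB (8.05%) and 272 lower (5.76%). These genes were chosen with the same HMW and CpGB libraries to which the pair is compared, so what follows describes them. Choosing genes by a large difference can place the pair short of the CpGB level even where both are equal. By how much was not tested. The pair differed from HMW but not from CpGB for 534 of the 652 (81.9%), from CpGB for 0 (as over all tested genes), and from neither for 118. On a scale where 0 is the HMW level and 1 the CpGB level, in log2 units, the median position of the pair was 0.907, with quartiles of 0.762 and 1.01. The medians of the 3 pair libraries taken singly were 0.884, 0.949 and 0.906 (SD 0.0333). The pair stood nearer to CpGB for 605 genes and nearer to HMW for 47. Genes higher with CpGB had a median position of 0.938, and genes lower with CpGB a median of 0.831, and 42 of the 47 genes nearer to HMW belonged to the second set. For separating genes at a mean of 100 CPM or more the median was 0.956.

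**Figure D2:**
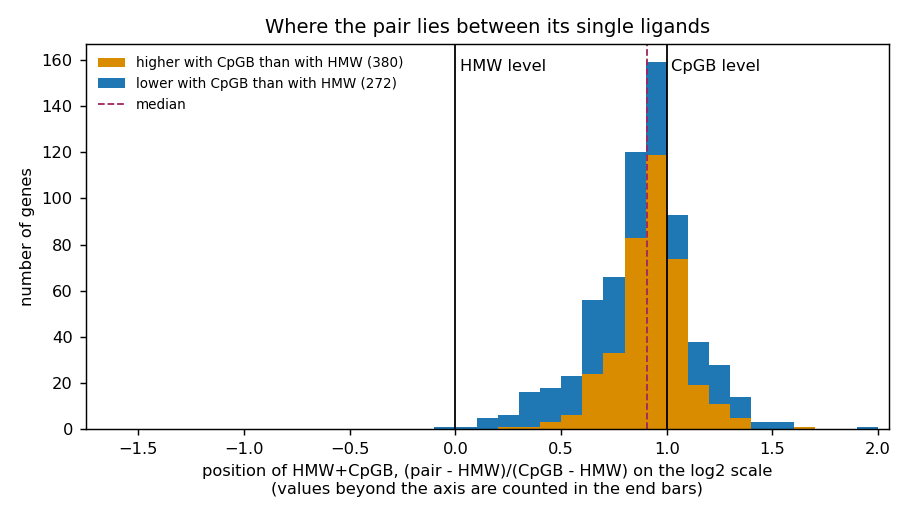
Position of the pair between HMW (0) and CpGB (1) on the log2 scale for the 652 genes that separated these ligands, with the number of genes on the vertical axis. The distribution has its median at 0.907, and 1 value of 2.82 is drawn in the last bar.

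Inflammatory cytokine genes showed the pattern most plainly. In the pair, 12 of 13 tested list members were higher than with HMW and 0 were lower, against 7.84% and 5.85% of all tested genes. The list's median log2 difference was 3.29 against HMW and −0.06 against CpGB. Over all tested genes these medians were −0.04 and −0.00. The gene Il1b, which encodes the fever-inducing cytokine interleukin-1 beta, had 482, 350 and 372 CPM with HMW, 5182, 4958 and 6488 with CpGB, and 5089, 5419 and 5472 in the pair. The pair libraries lay above every HMW library and within the CpGB range. The log2 fold change of the pair was 3.76 (SE 0.14, adjusted p = 5.39e-66, edgeR) against HMW and −0.06 (95% interval −0.28 to 0.16) against CpGB.

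Tnf, the gene of tumour necrosis factor, had 990, 1063 and 902 CPM with HMW, 5473, 6699 and 6110 with CpGB, and 5788, 6466 and 6240 in the pair. Again the pair overlapped CpGB and not HMW, with log2 fold changes of 2.65 (SE 0.17, adjusted p = 3.45e-34, edgeR) and 0.01 (95% interval −0.28 to 0.31). Il6, whose promoter is printed above with its NF-kB match, had 83.2, 157 and 88.3 CPM with HMW, 1009, 1195 and 1277 with CpGB, and 946, 1321 and 1067 in the pair. Its log2 fold change was 3.29 (SE 0.20, adjusted p = 1.42e-36) against HMW and −0.07 against CpGB. None of these 3 genes was called with HMW against Ctrl, where the range was 259 to 362 CPM for Il1b, 637 to 1135 for Tnf and up to 182 for Il6.

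Both subunits of interleukin-12, a cytokine that drives T helper type 1 responses, followed. Il12b had 8.3, 4.5 and 18.6 CPM with HMW, 165, 179 and 175 with CpGB, and 241, 188 and 120 in the pair, with a log2 difference of 3.98 (SE 0.65, adjusted p = 1.06e-07, edgeR) over HMW and 0.05 over CpGB. The pair libraries spread to both sides of the CpGB libraries. Il12a rested on 2 counts with HMW and 101 in the pair, a ratio of 40.7 in CPM with an exact binomial 95% interval of 10.97 to 340 for counting error. It had 77.6, 138 and 152 CPM with CpGB and 115, 164 and 147 in the pair.

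Il10, which encodes an anti-inflammatory cytokine, was the list member not called against HMW. It was at 0 in the HMW and Ctrl libraries, at 19.4, 15.3 and 13.8 CPM with CpGB, and at 0, 3.4 and 4.6 CPM in the pair. The pair libraries lay below the CpGB libraries, but these values stand for 8 counts with CpGB and 2 in the pair. The ratio of pair to CpGB was 0.186 with a 95% counting interval of 0.0192 to 0.932, and the difference did not pass adjustment (unadjusted p = 0.0263, adjusted p = 1, edgeR). The type I interferon gene Ifnb1 was near the detection limit, at 8.3, 0 and 13.9 CPM with HMW, 38.8, 10.2 and 18.4 with CpGB and 32.8, 10.2 and 13.8 in the pair, and it was not called against HMW (1.20 on the log2 scale, adjusted p = 0.363, edgeR). The other interferon genes listed (Ifna1, Ifna2, Ifna4, Ifna5, Ifng, Ifnl2 and Ifnl3) had 0 counts in the 12 libraries.

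Chemokines, the signals that recruit leukocytes, had 11 of 17 tested members higher in the pair than with HMW and 0 lower. Over all tested genes, 7.84% were higher and 5.85% lower. Ccl5, which attracts T cells and monocytes, had 2478, 2605 and 2105 CPM with HMW, 11577, 12759 and 16988 with CpGB, and 11068, 11615 and 13032 in the pair (log2 fold change 2.31 over HMW, SE 0.15, adjusted p = 9.54e-34, edgeR). The neutrophil chemokine gene Cxcl1 went from 16.6, 53.8 and 27.9 CPM with HMW to 590, 590 and 667 in the pair, against 611, 618 and 687 with CpGB. Ccl22 and Ccl17, which attract CCR4-bearing T cells, were higher by 2.84 and 2.76 on the log2 scale. Ccl6 stood apart: it was lower in the pair than with HMW by an adjusted p of 7.76e-07 (edgeR) without reaching the fold threshold, at 2204, 2475 and 2217 CPM with HMW, 1679, 1358 and 1605 with CpGB and 1503, 1375 and 1678 in the pair.

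**Figure D3:**
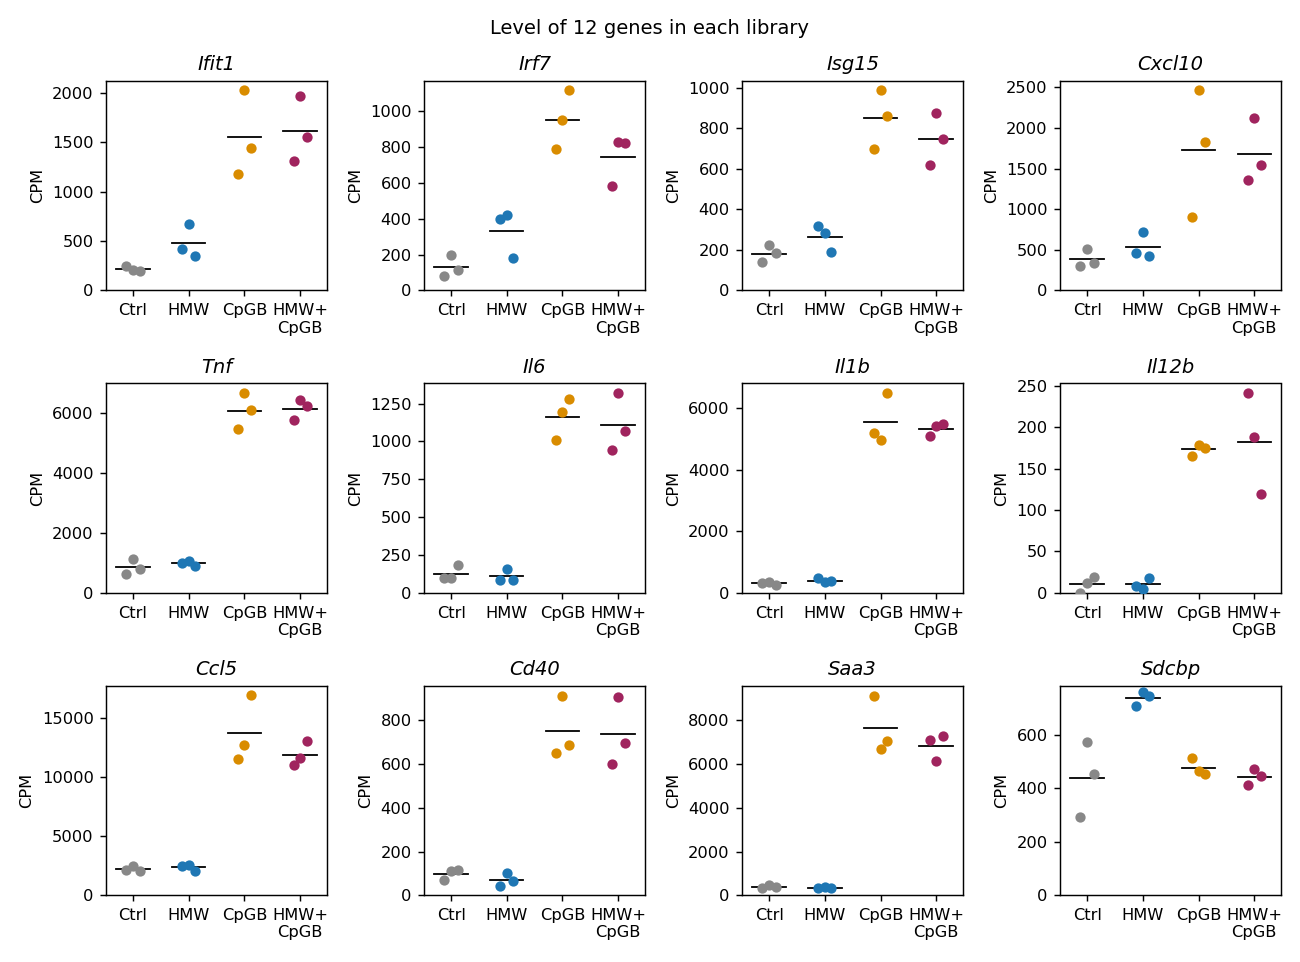
CPM of 12 genes in each library of Ctrl, HMW, CpGB and the pair (points) with the group mean (bars), n = 3 libraries per group and axes starting at 0. For 11 of the genes shown the pair lies with CpGB and above HMW, as for Il1b with 5089 to 5472 CPM against 350 to 482, and Sdcbp is the gene that is lower in the pair than with HMW.

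Most of the listed subunits and inhibitors of NF-kB moved the same way. In this list 9 of 15 tested members were higher in the pair than with HMW (7.84% of all tested genes) and 0 were lower (5.85%). Against CpGB 0 members were called, as over all tested genes (0.0%). Nfkbia, which encodes the inhibitor IkB-alpha, had 565, 610 and 418 CPM with HMW, 1262, 1353 and 1508 with CpGB and 1388, 1351 and 1472 in the pair (log2 fold change 1.41 over HMW, SE 0.12). Irak3, an inhibitor of MyD88 signalling, rested on lower levels, 8.3, 26.9 and 27.9 CPM with HMW and 158, 113 and 179 in the pair, and the 3 pair libraries lay above the 3 HMW libraries. Socs3, which restrains STAT signalling, was higher by 2.54 (SE 0.26, adjusted p = 5.41e-17, edgeR). Of the list of interferon regulatory factors, STATs and SOCS proteins, 4 of 14 were higher (Irf7, Stat5a, Socs1 and Socs3), against 7.84% of all tested genes.

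Interferon-stimulated genes were higher in the pair too, from a level that HMW alone had raised for 5 of the 15 listed, where 0.953% of all tested genes were called higher with HMW than in Ctrl. Of the 15 listed, 13 were higher in the pair than with HMW (7.84% of all tested genes) and 0 were lower (5.85%). The list's median log2 difference was 1.41 against HMW and −0.14 against CpGB. Ifit1, which binds viral RNA and has 2 response element cores in the promoter printed above, had 249, 212 and 192.03 CPM in Ctrl, 416, 677 and 349 with HMW, 1174, 2027 and 1443 with CpGB, and 1306, 1972 and 1550 in the pair. The pair overlapped CpGB and lay above each HMW library. Its log2 fold change was 1.73 (SE 0.16, adjusted p = 1.12e-19, edgeR) against HMW and 0.04 (95% interval −0.24 to 0.33) against CpGB. Reads of the Ifit, Oas, Mx and Gbp families may be shared among near-identical relatives, and how the counting treated them is not given in the sources used here.

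Irf7 encodes the factor that amplifies interferon gene transcription. It had 399, 422 and 181 CPM with HMW, 786, 950 and 1116 with CpGB, and 585, 829 and 823 in the pair. The pair was above HMW by 1.20 on the log2 scale (SE 0.18, adjusted p = 1.39e-08, edgeR). This difference fell to 0.93, under the fold threshold, without HMW replicate 3. Against CpGB the log2 difference of Irf7 was −0.36 (SE 0.16, unadjusted p = 0.0251, edgeR). It did not pass adjustment, and the libraries of the pair and of CpGB overlapped. Isg15, a ubiquitin-like modifier, had 316, 283 and 191 CPM with HMW, 699, 990 and 862 with CpGB, and 618, 874 and 750 in the pair, a log2 fold change of 1.56 over HMW (SE 0.18, adjusted p = 1.03e-13, edgeR). Cxcl10, which attracts T cells, had 457, 717 and 423 CPM with HMW, 903, 2471 and 1831 with CpGB, and 1356, 2129 and 1545 in the pair, with a log2 difference of 1.64 (SE 0.20, adjusted p = 1.59e-12) over HMW and −0.08 against CpGB. The list members furthest below CpGB were Isg20 and Usp18, both interferon-stimulated. Isg20 had 146, 138 and 231 CPM with CpGB and 65.6, 116 and 92.0 in the pair, without overlap, a log2 difference of −0.90 whose unadjusted p of 0.00254 did not pass adjustment (adjusted p = 0.994, edgeR).

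Nucleic acid sensors and their adaptors had 6 of 12 tested members higher in the pair than with HMW (7.84% of all tested genes) and 0 lower (5.85%). Ifih1 and Ddx58 encode the cytosolic RNA sensors MDA5 and RIG-I. Ifih1 had 166, 179 and 149 CPM with HMW, 476, 613 and 443 with CpGB and 432, 594 and 386 in the pair, 1.53 higher than with HMW on the log2 scale (SE 0.21, adjusted p = 1.13e-10, edgeR). Ddx58 was higher by 1.24 and Myd88 by 1.21. Tlr3 was not called (0.48, adjusted p = 0.675, edgeR). Tlr9, the receptor gene, had 0 counts in these 12 libraries, which allows a level of up to 1.48 CPM over them together, and 7 counts over the whole series, so its level cannot be compared. Among 10 tested genes of CpG uptake and endosomal processing, 2 were higher in the pair than with HMW (7.84% of all tested genes). The list's median log2 difference from HMW was −0.19. The 2 higher genes were the scavenger receptor gene Marco (507, 341 and 474 CPM with HMW and 4865, 3822 and 4217 in the pair) and the co-receptor gene Cd14 (399, 511 and 553 CPM against 1421, 1051 and 1306). The cathepsin genes Ctsb and Ctsl and the scavenger receptor gene Cd36 were lower by 0.38, 0.63 and 0.58 on the log2 scale, past the adjusted p but not the fold threshold.

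Of the genes of dendritic cell maturation, 4 of 9 tested costimulation genes were higher in the pair than with HMW (Cd40, Icam1, Fscn1 and Cd274). The share over all tested genes was 7.84%. Cd40, the receptor for CD40 ligand on T cells, had 41.6, 103 and 65.1 CPM with HMW, 650, 914 and 687 with CpGB, and 601, 908 and 699 in the pair. The log2 fold change was 3.31 (SE 0.23, adjusted p = 1.9e-31, edgeR) over HMW and −0.03 over CpGB. Genes of MHC class I presentation had 4 of 10 members higher (7.84% of all tested genes). Among them was the peptide transporter gene Tap1, at 208, 170 and 139 CPM with HMW and 333, 430 and 414 in the pair. None of 7 MHC class II genes was called in either direction, and H2-Ab1, a class II chain gene, had 1538, 1556 and 1338 CPM with HMW and 1700, 1928 and 1849 in the pair. By adjusted p alone 1 was higher, H2-Ab1 (0.31), and 1 lower, H2-DMa (−0.80), a chain of the peptide-loading factor, with 233, 148 and 186 CPM with HMW and 87.5, 119 and 101 in the pair. Immunity-related and guanylate-binding GTPases, which attack microbial vacuoles, had 8 of 11 members higher (7.84% of all tested genes), led by Gbp3 (2.30) and Gbp2 (2.08).

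Acute-phase and metabolic effector genes had 8 of 11 tested members higher in the pair than with HMW, against 7.84% of all tested genes. Saa3, an acute-phase protein gene, had 349, 381 and 330 CPM with HMW, 9102, 6658 and 7055 with CpGB, and 7078, 6101 and 7270 in the pair, a log2 difference of 4.26 (SE 0.21, adjusted p = 1.55e-49, edgeR). Irg1, which makes itaconate, was higher by 1.97, Sod2, a mitochondrial antioxidant enzyme, by 2.13, and Ptgs2, the inducible cyclooxygenase, by 3.42. Glycolysis had 1 of 17 members higher (Pfkl) and cholesterol metabolism 1 of 13 (Ch25h, which makes 25-hydroxycholesterol), shares no higher than the 7.84% of all tested genes. Of 15 listed cell cycle genes only 3 could be tested, and 1 was lower (5.85% of all tested genes). It was Pcna, a replication clamp gene, at 416, 314 and 446 CPM with HMW and 159, 195 and 147 in the pair (−1.20, SE 0.21). None of the 187 tested members of the 24 lists was called against CpGB, which follows from the 0.0% of all tested genes called there.

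The largest called rises over HMW, by the rule for named genes, included Saa3, which had 198 counts with HMW, and Il12a. They also included genes with 1 to 5 counts with HMW, whose sizes rest on those few counts. The ratio of pair to HMW was 50.7 for Zfp811 (95% counting interval 8.78 to 2035), a zinc finger gene, on 1 count with HMW and 63 in the pair. It was 45.1 (7.77 to 1813) for Ppfia3 and 33.0 (5.60 to 1336) for the neutrophil chemokine gene Cxcl5. Cp, the gene of the copper carrier ceruloplasmin, had 8.3, 9.0 and 0 CPM with HMW and 126, 133 and 161 in the pair, a ratio of 26.0 (8.65 to 128). The receptor genes Cd300e and Tarm1 were also among them, with a ratio of 22.1 (5.85 to 187) for Cd300e and a log2 fold change of 4.18 for Tarm1. Each of these low-count genes had overlapping levels in the pair and with CpGB, as for Zfp811 with 115, 68.3 and 101 CPM in the pair and 87.3, 128 and 92.2 with CpGB.

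The largest called falls were likewise of weakly expressed genes. Matk, a kinase gene, had 91.5, 26.9 and 32.5 CPM with HMW and 0 in the pair libraries, at least 9.93-fold lower when 3 counts over the group are taken as the floor, and 19.4, 5.1 and 9.2 CPM with CpGB. Emp1, a membrane protein gene, had 33.3, 17.9 and 37.2 CPM with HMW and 0 in the pair, at least 6.62-fold lower. For Adssl1, C77080, Tmem154 and Tmem37 the pair held 1 to 3 counts, and the ratios of pair to HMW were 0.0779 (0.0152 to 0.250), 0.0732 (0.00834 to 0.298), 0.0336 (0.000816 to 0.206) and 0.0895 (0.0101 to 0.374), with 95% counting intervals in parentheses. The call of Tmem37 was lost without replicate 1 of every group (−2.42, adjusted p = 0.0782, edgeR). Counting intervals and floors cover counting error only.

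The genes that HMW raised on its own show what became of the HMW response when CpGB was present. HMW alone changed 46 genes against Ctrl (0.975%), 45 higher (0.953%) and 1 lower, against 804 (17.0%) for CpGB, of which 508 were higher (10.8%), and 767 (16.2%) for the pair. The split for CpGB turned with the scaling, to 392 higher and 491 lower with total counts alone, against 508 and 296 with TMM factors, with the median log2 difference of all tested genes moved by −0.22. Both single ligands were compared with the same Ctrl libraries, which also chose the 45 genes, so their values are given side by side as a description: the 45 had a median log2 fold change of 1.63 with HMW (1.62 with Sfmbt1, at 0 counts in Ctrl, at its bound) and 2.81 with CpGB. In the pair, 35 of the 45 were higher than with HMW by adjusted p, 18 of them by at least 2-fold, and 1 was lower. Against CpGB the median difference was −0.08, with a range from −0.82 to 0.27, and 42 of the 45 had intervals within 2-fold. The number called with HMW rested on 1 library to a large part: without HMW replicate 2, 20 genes were called.

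An interaction measures whether HMW had a different log2 effect on top of CpGB than on unstimulated cells, and 50 genes passed an adjusted p under 0.05 in edgeR (1.06%). For 49 of them (1.04%) the effect of HMW was smaller with CpGB present, with a median interaction of −1.62, and 40 of the 49 were among the 45 genes raised by HMW. The same HMW and Ctrl libraries chose those 45 genes, so the overlap describes them. The Ctrl and CpGB libraries also enter the interaction, so the levels of the 49 with CpGB are no separate evidence. The count was 21 without HMW replicate 2, 33 without CpGB replicate 3, 33 without Ctrl replicate 1 and 31 without Ctrl replicate 3.

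Among interferon-stimulated genes, Ifit1 had an interaction of −1.14 (adjusted p = 0.0169, edgeR) and Irf7 of −1.66 (adjusted p = 0.000752). The Ifit1 call was lost without HMW replicate 2 (−0.81, adjusted p = 0.439), CpGB replicate 2 (−0.93, 0.164) or Ctrl replicate 3 (−1.08, 0.134) and with libraries thinned to equal totals (−0.86, 0.319), and the Irf7 call was kept without each of the 12 libraries in turn. Oas2, an activator of RNase L, had 0, 12.5 and 9.6 CPM in Ctrl, 108, 135 and 55.8 with HMW, 87.3, 148 and 152 with CpGB, and 115, 154 and 78.2 in the pair, so that all 3 treated groups overlapped, and its interaction was −3.74, a call that was lost with thinned libraries (−3.23, adjusted p = 0.0692). The remaining HMW-raised genes of this kind included Igtp, Ifi203, Rtp4 and Oasl2, with interactions of −3.32, −2.63, −2.46 and −2.23.

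Chuk, which encodes the kinase IKK-alpha, was the HMW-raised gene that was lower in the pair than with HMW. It had 0, 12.5 and 9.6 CPM in Ctrl, 83.2, 76.2 and 51.1 with HMW, 58.2, 51.1 and 46.1 with CpGB, and 32.8, 34.1 and 18.4 in the pair. The pair lay below both single ligands in every library, but only the difference from HMW passed the test (−1.23, adjusted p = 0.0449, edgeR), and that from CpGB was −0.80 (95% interval −1.79 to 0.19). Sfmbt1, a chromatin protein gene, had the most negative interaction at −6.38. This value depends on Ctrl libraries at 0 counts and is no bound. It had 41.6, 31.4 and 32.5 CPM with HMW, 29.1, 40.8 and 23.1 with CpGB, and 21.9, 20.5 and 9.2 in the pair, and HMW was at least 2.91-fold over Ctrl with the floor of 3 counts over the group. Zfp131, a zinc finger gene, and Papd7, a poly(A) polymerase gene, had interactions of −3.73 and −3.63, each on 1 count in Ctrl. Leaving out single libraries ended the calls of these 4 genes in part: without Ctrl replicate 1 the values were −3.39 for Chuk (adjusted p = 0.0982), −6.36 for Sfmbt1 (0.0715), −3.33 for Zfp131 (0.134) and −3.23 for Papd7 (0.101), all in edgeR. The Papd7 call was also lost in DESeq2 (−3.66, adjusted p = 0.0770) and with thinned libraries (−4.86, 0.0692), and the Zfp131 call with no filter on low counts (−3.80, 0.0600).

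**Figure D4:**
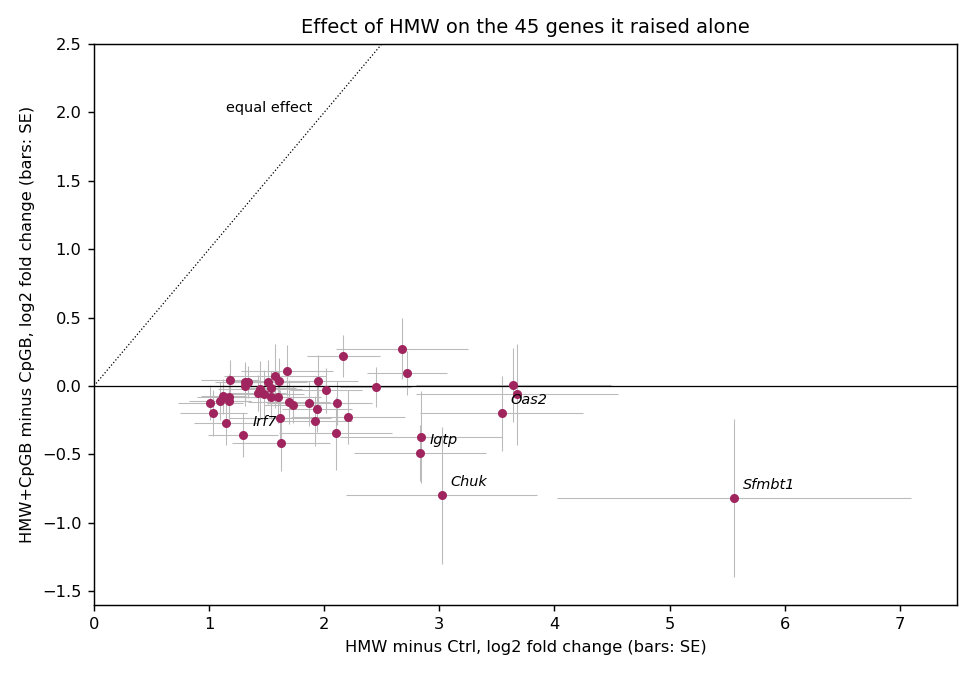
Effect of HMW on unstimulated cells (HMW minus Ctrl, horizontal axis) and on CpGB-treated cells (pair minus CpGB, vertical axis), both as log2 fold changes with SE bars, for the 45 genes raised by HMW alone. The dotted line marks equal effects. The horizontal values have a median of 1.63 and the vertical values lie between −0.82 and 0.27.

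Sdcbp, the gene of the adaptor syntenin, was among the 49 and was not called higher with CpGB alone. It had 291, 574 and 451 CPM in Ctrl, 707, 758 and 744 with HMW, 514, 465 and 452 with CpGB, and 410, 471 and 446 in the pair. HMW stood above the other groups in each library, and the pair was lower than HMW by 0.73 on the log2 scale (SE 0.13, adjusted p = 1.72e-06, edgeR), short of the fold threshold, with an interaction of −0.82 (adjusted p = 0.0173). The interaction was lost without Ctrl replicate 1 (−0.64, adjusted p = 0.231) or HMW replicate 2 (−0.85, 0.0501), with RLE scaling factors (−0.75, 0.0566), in a fit on the 4 groups alone (−0.78, 0.0584), with no filter on low counts (−0.92, 0.0699) and with libraries thinned to equal totals (−0.59, 0.661). Nagk, an amino sugar kinase gene, had the only positive interaction, 1.89 (adjusted p = 0.0332). It had 152, 137 and 134 CPM in Ctrl, 108, 89.7 and 79.0 with HMW, 67.9, 30.6 and 32.3 with CpGB, and 87.5, 71.7 and 129 in the pair, which overlapped HMW and lay above CpGB. The Nagk call was lost under 9 of the 12 settings that left out 1 library, as without HMW + CpGB replicate 3 (1.61, adjusted p = 0.215), and also with no filter (1.79, 0.178) and thinned (1.46, 0.663).

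The genes with the smallest p against CpGB were looked at after their values were seen. Nktr, a cyclophilin-related gene, had 48.5, 91.9 and 64.6 CPM with CpGB and 32.8, 27.3 and 13.8 in the pair, a log2 difference of −1.51 (unadjusted p = 0.00017, adjusted p = 0.803, edgeR). Plek, which encodes the protein kinase C substrate pleckstrin, is an example above CpGB at a high level, at 1310, 1409 and 1554 CPM with CpGB and 1946, 1645 and 1816 in the pair. The pair libraries did not overlap CpGB or HMW (615, 605 and 674 CPM). The difference from CpGB was 0.33 (95% interval 0.13 to 0.52, adjusted p = 0.994) and did not pass.

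Promoter letters were counted for the gene groups as a description, with no test. A response element core was found in 3.46% of 27025 RefSeq promoters of 250 bases and in 4.32% of 3614 tested genes with a promoter in the table. It was found in 12 of 36 genes raised by HMW (33.3%), 15 of 38 with a negative interaction (39.5%), 31 of 285 higher in the pair than with HMW (10.9%) and 10 of 210 lower (4.76%). An NF-kB match was found in 19.7% of all promoters and 26.5% of tested genes, and in 30.6%, 23.7%, 31.2% and 30.0% of the same groups. A match of letters does not show that a factor binds there.

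HMW was also added to CpGB in the presence of a further ligand, which gives 5 more comparisons of the same kind. The further ligands were PAM, LPS (lipopolysaccharide), Zymosan (labelled as depleted), SeV and 3′,3′-cGAMP. Adding HMW to CpGB plus PAM, LPS or Zymosan gave 0 called genes each in edgeR (0.0%, with 224, 202 and 215 genes at an unadjusted p under 0.05). With SeV it gave 12 (0.254%), 10 higher and 2 lower, and with cGAMP 2 lower, Myo10 and Sdc4 (0.0424%). In the absence of CpGB, adding HMW to PAM changed 83 genes (1.76%) and adding it to Zymosan changed 92 (1.95%), while adding it to LPS, SeV or cGAMP changed 0 in edgeR, with 218, 303 and 208 genes at an unadjusted p under 0.05. Whether these counts differ from each other was not tested.

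Adding CpGB to HMW plus a further ligand changed 1 gene with PAM (0.0212%), 54 with LPS (1.14%), 215 with Zymosan (4.56%), 279 with SeV (5.91%) and 289 with cGAMP (6.12%), against 646 when it was added to HMW alone. Ligands other than HMW did change cells given CpGB: PAM changed 43 genes (0.911%), LPS 348 (7.37%), Zymosan 203 (4.3%), SeV 33 (0.699%) and cGAMP 367 (7.78%), where HMW changed 0. These comparisons share the CpGB libraries.

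**Figure D5:**
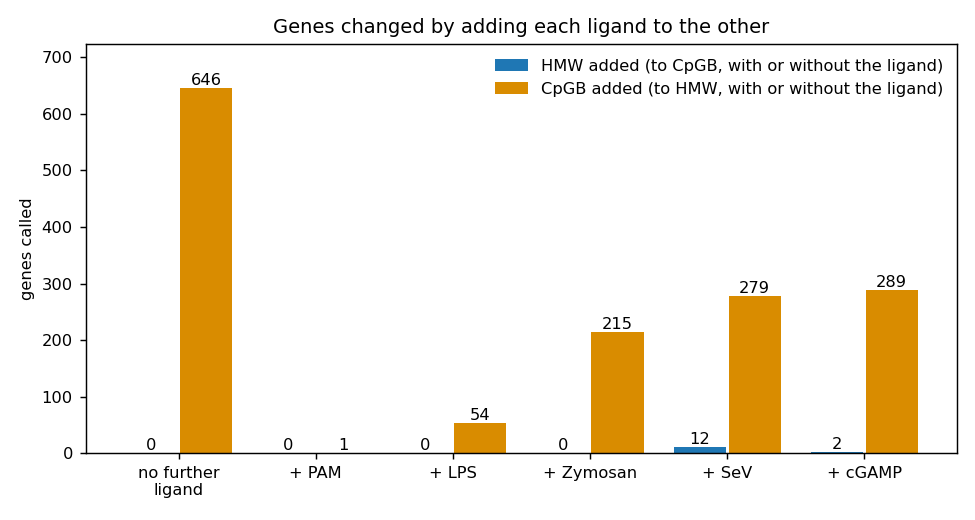
Number of genes called when HMW was added to CpGB (0, 0, 0, 0, 12 and 2 genes) and when CpGB was added to HMW (646, 1, 54, 215, 279 and 289 genes), with no further ligand and with PAM, LPS, Zymosan, SeV or cGAMP present. Bars start at 0, and each comparison has 3 libraries per group.

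The calls of the SeV comparison depended on single libraries, and most on replicate 1 of the triple combination (HMW, SeV and CpGB together). Tnfsf15, a TNF-family cytokine gene, had 2407, 638 and 562 CPM in the libraries of HMW, SeV and CpGB together and 377, 489 and 297 without HMW, a log2 difference of 1.58. The high value came from replicate 1. The antiviral gene Oasl1 had 3591, 955 and 1020 CPM against 778, 783 and 773. For Tnfsf15, Oasl1 and Rgs1 (a regulator of chemokine receptor signalling) the effect of HMW differed from its effect on CpGB alone, by 2.04, 1.35 and 1.38 on the log2 scale (edgeR, adjusted p under 0.05, 0.0636% of genes). Without replicate 1 of the triple combination, 0 of the 12 genes were called and 0 differed, with a difference of 1.09 (adjusted p = 0.529) for Tnfsf15, 0.48 (0.854) for Oasl1 and 1.17 (0.503) for Rgs1. The Oasl1 and Rgs1 differences also missed the threshold without any 1 of the SeV and CpGB libraries, with adjusted p from 0.0876 to 0.117 for Oasl1 and from 0.0565 to 0.187 for Rgs1, and Rgs1 also without replicate 3 of the triple combination (0.0799). When any library other than replicate 1 of the triple combination was left out, 4 to 25 genes were called, with 4 to 6 of the 12 among them for a SeV and CpGB library and 10 or 11 for a library of the triple combination. The 2 lower genes did not follow replicate 1 in level: Actr1a, a dynactin subunit gene, had 39.2, 43.2 and 72.6 CPM with HMW and 188, 113 and 139 without, and Ppp3ca, a calcineurin subunit gene, had 19.6, 9.6 and 9.1 against 73.7, 37.7 and 66.1. For cGAMP, 0 genes were called without replicate 1 of HMW, cGAMP and CpGB together or without replicate 2 of cGAMP and CpGB.

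The split of the genes called between the pair and HMW depended on how libraries were scaled. With total counts alone in place of TMM factors, 295 were higher and 380 lower (43.7% higher, against 57.3% with TMM), and the median log2 difference of all tested genes moved by −0.17. Leaving out replicate 2 or replicate 3 of every group gave 166 and 175 lower genes in place of 276. Against CpGB no gene was called under either.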

How the data were processed

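RNA was measured in 64 groups of 3 libraries, of which 9 libraries carry the comparison and 3 are Ctrl. Per the labels' protocols, RNA was reverse transcribed with template switching, barcoded cDNA was pooled, tagmented with Nextera XT and sequenced on a NextSeq. BWA 0.7.15 and mm10 are named in the submitters' processing notes. The deposited values are whole-number UMI counts per gene symbol, without normalization by the authors. The annotation, the collapsing of UMIs and the treatment of reads matching several genes are not given in the sources used here.

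The tests used edgeR 4.0.16 and limma 3.58.1 in R 4.3.3. Genes were kept by filterByExpr, which left 4720 of 23481 with 95.7% of UMIs. A quasi-likelihood model with 1 coefficient per group and TMM factors was fitted to all libraries (128 residual degrees of freedom), and p-values were adjusted by Benjamini-Hochberg over 4720 genes. A call required an adjusted p under 0.05 and a log2 fold change of 1 or more in size, or the adjusted p alone for interactions. Above or below both ligands took the larger of both p-values. DESeq2 1.42.0, other scaling, thinning to 46564 counts per library, leave-outs and a replicate block were alternatives. The code was checked on simulated counts. No 2 libraries of a group held identical values.

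Members, gene lists and rules were chosen with earlier results of these data known. Genes were named by rule: 12 cytokine, chemokine and interferon-response genes, the 8 largest called rises and 6 largest called falls of the pair against each ligand among genes with at least 20 CPM in either group and no overlap, and the 5 most negative and 5 most positive interactions. Other list members, Sdcbp, Nktr, Plek, Ifi203, Rtp4, Oasl2 and the genes of the SeV and cGAMP comparisons were named after their values were seen. Promoters were matched by symbol to RefSeq GRCm38.p6, in which 21705 of 23481 symbols were found.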

Additional observations from a re-analysis of the deposited data

Results flagged for a closer look

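The log2 effect of HMW differed, by a test of the difference itself (edgeR's quasi-likelihood interaction term), between cells with and without CpGB for 49 genes with a smaller effect under CpGB and 1 with a larger one. Among the genes described, of which Sdcbp was chosen after its values were seen, the difference was −6.38 for Sfmbt1, −3.82 for Chuk, −3.74 for Oas2, −3.73 for Zfp131, −3.63 for Papd7, −1.66 for Irf7, −1.14 for Ifit1, −0.82 for Sdcbp and 1.89 for Nagk. The Sfmbt1, Zfp131, Papd7, Oas2 and Chuk values rest on 0 to 2 counts in Ctrl.

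The effect of HMW on CpGB plus SeV differed from its effect on CpGB alone by 2.04 for Tnfsf15, 1.38 for Rgs1 and 1.35 for Oasl1, and none of the 3 passed without replicate 1 of the triple combination. Rgs1 and Oasl1 also missed the threshold without any 1 of the SeV and CpGB libraries, and Rgs1 without replicate 3 of the triple combination.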

How the results depend on the processing

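No gene was called against CpGB under any alternative run, so none could be called above both or below both ligands. No called value changed sign. Thinned to 46564 counts per library, which left 1838 genes to test, 286 genes were called between the pair and HMW, 216 separating genes differed from HMW only, 14 interactions and 23 HMW genes against Ctrl were called, adding HMW to CpGB plus a further ligand gave 6 and adding CpGB gave 364. With no fold threshold these last counts were 34 and 1463, and DESeq2 gave 8 for HMW. Separating genes with at least 100 CPM had a median position of 0.956.

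Leaving out replicates gave 491 to 675 genes against HMW, 0 to 0 against CpGB, above both and below both, 361 to 537 separating genes apart from HMW only, a position of 0.881 to 0.935, 19 to 69 interactions, 17 to 65 genes with HMW against Ctrl, 0 to 18 and 639 to 708 genes for HMW and CpGB added to a further ligand, and 69 to 85 list members. Of the alternative values of named genes, 476 of 479 against HMW and 131 of 190 interactions kept their call. The exceptions against HMW were Irf7 without HMW replicate 3 or replicate 3 of every group, and Tmem37.

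With the replicate number as a block, the counts were 650 against HMW, 0 against CpGB, 0 above and 0 below both, 536 separating genes, a position of 0.907, 52 interactions, 47 HMW genes, 16 and 849 genes for HMW and CpGB added, and 78 list members. The numbers share no stated origin, and same-numbered libraries correlated at −0.00288 to 0.0690 in the pair comparisons, 0 of 6 over 0.1, with 3 of 6 closest to their own number.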
